A study of Sus scrofa with 6 samples.

Results

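The genes described here encode the machinery that folds collagen in the endoplasmic reticulum and carries it to the Golgi. They were chosen by gene symbol, with earlier results of these data known, and comprised 56 of the 6765 genes to which the array annotation gave a single symbol. These 56 genes were read by 95 probe sets, and each gene was represented by its probe set with the highest mean over the 6 arrays. The symbols P4HB, PPIB, LMAN1 and MIA3 also belong to the rule, but no probe set carried one of them as its single symbol, and these genes were not analysed here. The 56 genes comprised 3 collagen hydroxylases, 2 collagen chaperones, 6 folding factors of general use, 13 genes of the translocon and signal peptidase, 17 genes of the COPII coat and cargo export, 10 genes of the COPI coat and retrieval, 3 transcription factors of the stress response, and SEC14L1 and SEC14L2, lipid-binding proteins that matched the rule by their symbols only.

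The samples were aortic valve leaflets of 3 female and 3 castrated male pigs, aged 5 months, of mixed breed, with healthy valves. Leaflets had been taken at most 5 hours after death and scraped with a scalpel to remove the endothelium from the tissue of valvular interstitial cells (VICs) and matrix, and 400 ng of total RNA from each had been labelled for an Affymetrix Porcine Genome Array. Each array held the RNA of 1 pig, and the comparison was of male with female leaflets. All males were castrated and no female was, so sex and castration cannot be told apart. Values are log2 signals made by RMA, so that a difference of 1 is a 2-fold change, and every difference below is the male mean minus the female mean. A signal depends on the probes, so levels were not compared between genes.

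Fibrillar collagen is made by valvular fibroblast-like cells as a procollagen that enters the endoplasmic reticulum through the SEC61 channel, loses its signal peptide, and is hydroxylated on proline and lysine before its chains wind into a triple helix. The chaperone SERPINH1 (HSP47) binds the finished helix, COPII coats export it toward the Golgi, and COPI coats and the KDEL receptors return escaped chaperones. Cells that secrete large amounts of matrix adjust this machinery in part through the unfolded protein response, in which XBP1, ATF4 and DDIT3 act.

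The arrays had similar medians over all probe sets (7.33 to 7.38). EIF1AY, which is Y-linked, was between 9.98 and 10.07 in the males and between 3.04 and 3.47 in the females, matching the labels. The gap between 5′ and 3′ control probe sets, which widens as RNA degrades, was largest in female replicate 3, at -2.69 for GAPDH against -2.14 to -1.78 on the other arrays and -2.57 for EF1A against -1.46 to -1.28. Of 13 endothelial markers measured, 10 were higher on average in males, with a median difference of 0.70, 2 of them (ESAM and ICAM2) called with the filter described below, and only KDR lay under 5.55, the 25th percentile of probe set means. The summed linear signal of the list ran from 14335 to 28773 in males and from 10431 to 15922 in females. PECAM1, which marks endothelium, was 13.69, 13.31 and 12.61 in male replicates 1 to 3 and 12.16, 12.28 and 11.83 in female replicates 1 to 3. Of 11 fibroblast and VIC markers, 9 had a lower mean in males and 2 a higher one, with a median difference of -0.16. Their differences ran from -0.38 for DCN to 1.20 for S100A4, whose male values all lay above the females. Over all genes with a single symbol, 58.3% had the higher mean in males. COL1A2 and COL3A1 were counted among the fibroblast and VIC markers and again among the collagen chains below. Of 8 cardiomyocyte markers, 6 lay under the same percentile, among them MYH7, TNNT2 and MYL2. Median differences were -0.04 over 6 smooth muscle markers, 0.28 over 5 macrophage markers, 0.07 over 4 plasma and B cell markers and -0.23 over 6 cartilage markers, of which ACAN and COMP were called lower in males with the filter. In leaflet tissue, fewer cells of a type and less RNA per cell cannot be told apart.

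None of the 56 genes passed the test between the sexes. In limma over all 23999 probe sets other than controls, 0 of 56 had an adjusted p under 0.05, where 0.358% of all probe sets did and 0.304% did with at least a 2-fold change. The smallest adjusted p among the 56 genes was 0.177, for SEC11C. A second test used only probe sets of high coefficient of variation (CV), the ratio of the SD to the mean of the 6 log2 values. These were taken here as the top 10%, those at 6.50% or more. The study also filtered on CV, stating that values too unlike between biological replicates were excluded, and gave no threshold. The filter here kept high CV over the arrays of both sexes, so it differs from the filter as the study describes it. The 56 genes had a CV from 0.381% to 4.41%, so the top 10% held 0 of them and none was tested in this way. On the log2 scale a higher mean gives a lower CV at the same SD, so this CV also depends on signal level. The calls of the second test took in 7.59% of the probe sets kept. At an unadjusted p under 0.05, 2 genes were higher in males (SEC11C and SPCS3), or 3.57% of the 56 against 8.08% of all probe sets. By the same measure 1 gene was lower (SEC63), or 1.79% against 8.83%.

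The male values all lay above the female values for 8 genes (CALR, PDIA3, PDIA6, SEC11C, SPCS1, SPCS3, TMED7 and COPZ1), or 14.3%, where 11.1% of all probe sets did so. They all lay below for 7 genes (SEC63, SEC23A, SEC23IP, COPA, COPB2, COPG1 and COPZ2), or 12.5%, against 11.4%. Over the 6765 named genes, with 1 probe set each, the shares were 15.7% above and 9.08% below. The shares of the 56 genes are near both backgrounds. With 3 arrays against 3, an exact permutation test of a single gene cannot give a two-sided p below 0.1.

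**Figure D1:**
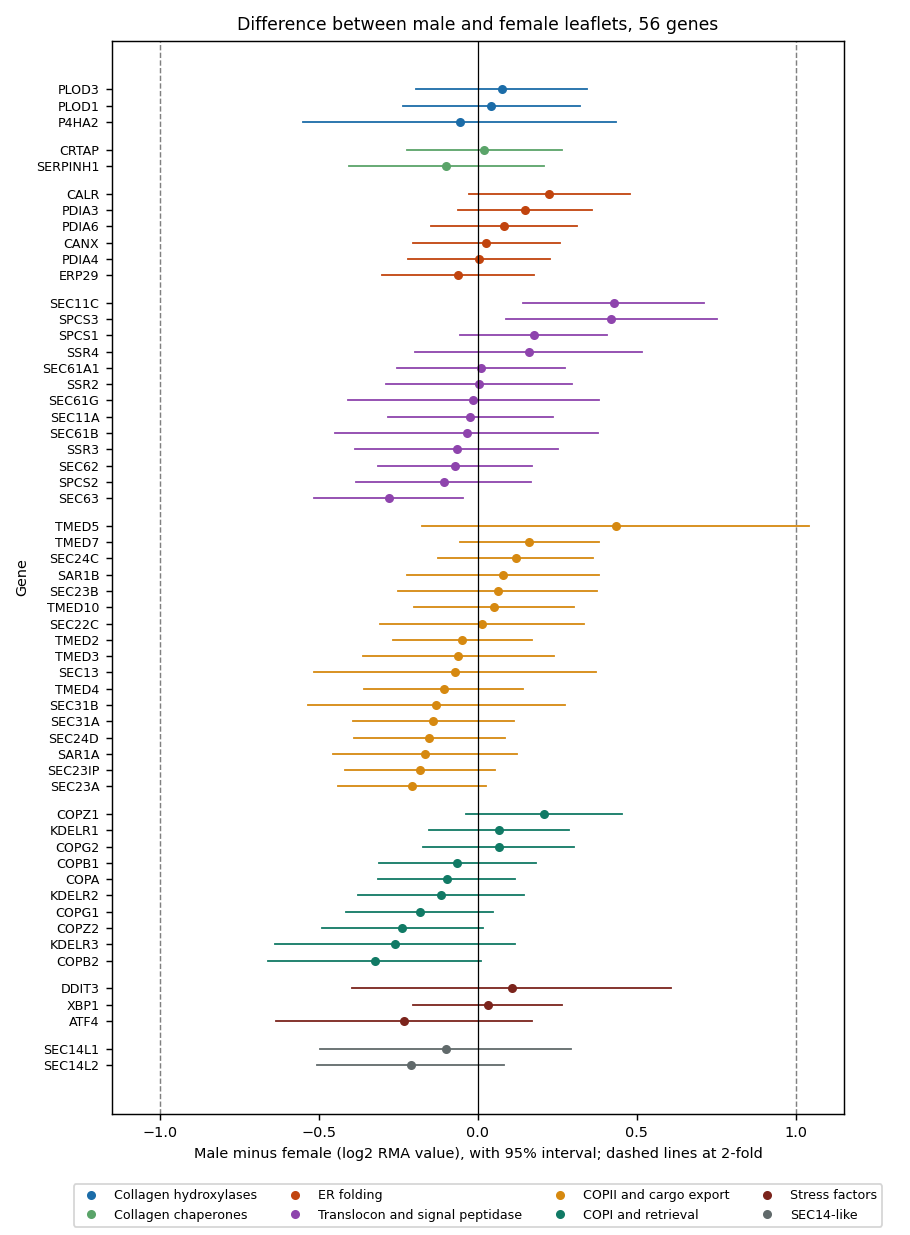
Difference between male and female leaflets for each of the 56 genes, as male minus female on the log2 scale (horizontal axis), with its 95% interval from limma (n = 3 pigs per sex), grouped and coloured by role. The dashed lines stand at a 2-fold change: 55 of the 56 intervals lie between them, and the interval of TMED5 reaches 1.04.

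The intervals bounded the size of these differences. The 95% interval of the difference lay within a 2-fold change in both directions for 55 of 56 genes, or 98.2%, against 88.9% of the 6765 named genes, and TMED5 was the exception (-0.18 to 1.04). It lay within 0.5 on the log2 scale for 43 genes, or 76.8%, against 54.4%. The median size of the difference, without its sign, was 0.10, a 1.07-fold change, against 0.15 over the named genes. The differences ran from -0.32 for COPB2 to 0.43 for TMED5. Their median was -0.03, against 0.05 over the named genes, with 26 genes higher in males (46.4%, against 58.3% of the named genes) and 30 lower. The SD within a sex had a median of 0.109 over the 56 genes and 0.157 over the named genes. All 6 values lay above the array medians for 51 of 56 genes. Only SPCS2, a signal peptidase subunit with a mean of 4.97, lay under the 25th percentile of probe set means, against 682 of the 6765 named genes. The comparisons with the named genes were not matched for signal level.

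The sexes overlapped in all 5 of the collagen hydroxylases and collagen chaperones. P4HA2, a catalytic subunit of a prolyl hydroxylase that makes the triple helix stable, was 10.57, 10.84 and 10.62 in males and 10.43, 11.21 and 10.56 in females. Female replicate 2 stood above the other arrays, and the male values lay inside the female range. The difference of P4HA2 was -0.06 (SE 0.21, 95% interval -0.55 to 0.44, limma adjusted p = 0.921).

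PLOD1, a lysyl hydroxylase that prepares collagen for cross-linking, was 10.81, 10.84 and 10.81 in males and 10.69, 10.99 and 10.67 in females, a difference of 0.04 (SE 0.12, limma adjusted p = 0.893). PLOD3, a lysyl hydroxylase that also glycosylates hydroxylysine, was 10.53, 10.42 and 10.28 in males and 10.40, 10.38 and 10.21 in females, a difference of 0.07 (SE 0.11, limma adjusted p = 0.790). The sexes overlapped for both genes, and female replicate 2 was the highest array of PLOD1.

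SERPINH1, the chaperone dedicated to collagen, was 12.04, 12.32 and 12.45 in males and 12.40, 12.29 and 12.41 in females. Male replicate 1 was the lowest array, and the other 5 arrays lay between 12.29 and 12.45. The difference was -0.10 (SE 0.13, 95% interval -0.41 to 0.21, limma adjusted p = 0.749). CRTAP, part of a second prolyl hydroxylase complex, was 11.86, 11.79 and 11.97 in males and 11.95, 11.83 and 11.78 in females, a difference of 0.02 (SE 0.10, limma adjusted p = 0.944). The intervals of SERPINH1 and CRTAP both lay within 0.5 on the log2 scale.

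None of the 6 general folding factors of the endoplasmic reticulum passed the test. The male mean was the higher one in 5 of them, with a median difference of 0.06, and 3 had every male value above every female value. Over the named genes, 58.3% had the higher mean in males and 15.7% had every male value above the females. For CANX and PDIA4, whose differences were 0.03 and 0.00, the sign turned when arrays were quantile normalized, and for PDIA4 also when arrays were centred on their medians. CALR (calreticulin), which binds calcium and folds glycoproteins, was 12.53, 12.34 and 12.48 in males and 12.12, 12.23 and 12.32 in females, a difference of 0.22 (SE 0.11, 95% interval -0.03 to 0.48, limma adjusted p = 0.339). The lowest male value of CALR was 0.02 above the highest female value. PDIA3, the disulfide isomerase that works with calreticulin and calnexin, was 12.71, 12.74 and 12.72 in males and 12.57, 12.61 and 12.55 in females, a difference of 0.15 (limma adjusted p = 0.453). PDIA6, a related isomerase, had a difference of 0.08. ERP29, an escort protein without an active isomerase site, was 10.96, 10.98 and 11.17 in males and 11.06, 11.13 and 11.12 in females, a difference of -0.06 (limma adjusted p = 0.801), and its sexes overlapped.

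The translocon and signal peptidase group held the smallest p-values of the set, in both directions. Its 13 genes had a median difference of -0.01, with 6 higher in males and 7 lower. SEC11C, a catalytic subunit of the signal peptidase, was 11.31, 11.15 and 10.97 in males and 10.79, 10.63 and 10.73 in females. Every male array lay above every female array, with male replicate 1 the highest. The difference was 0.43, or 1.34-fold (SE 0.12, 95% interval 0.14 to 0.71, limma adjusted p = 0.177). SPCS3, an accessory subunit of the same peptidase, was 10.85, 10.78 and 10.47 in males and 10.29, 10.43 and 10.12 in females, a difference of 0.42 (SE 0.14, 95% interval 0.09 to 0.75, limma adjusted p = 0.221). The sexes of SPCS3 did not overlap, but male replicate 3 was only 0.04 above female replicate 2.

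The other subunits of the peptidase had smaller differences. SPCS1 had a difference of 0.18, with every male value above the females (limma adjusted p = 0.415). SEC11A, the alternative catalytic subunit, had a difference of -0.02, and SPCS2 one of -0.11, both with overlap. The male arrays ranked alike in SEC11C, SPCS3, SPCS1 and TMED5 and in the endothelial marker PECAM1, with replicate 1 highest and replicate 3 lowest. The same order also held in genes with a lower mean in males, among them ATF4, COPB1, SEC14L1 and TMED2. Its share over all genes was not counted, and the part of endothelial RNA in these values was not tested.

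SEC63, which helps the SEC61 channel take up proteins after their synthesis, was 11.01, 11.01 and 11.08 in males and 11.20, 11.38 and 11.36 in females. All 3 male values lay below the females, by 0.12 at the nearest pair. The difference was -0.28, with females 1.21-fold higher (SE 0.10, 95% interval -0.51 to -0.05, limma adjusted p = 0.237). The other 2 probe sets of SEC63 had differences of -0.02 and 0.01, so the difference belonged to 1 probe set of 3. SEC62, the partner of SEC63, had a difference of -0.07. The subunits of the channel had differences of -0.03 for SEC61B, -0.01 for SEC61G and 0.01 for SEC61A1, the pore subunit, whose sign turned when arrays were centred or quantile normalized. Of the translocon-associated SSR proteins, SSR4 had a difference of 0.16, SSR2 of 0.00 and SSR3 of -0.07, and the sexes overlapped in all 3.

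**Figure D2:**
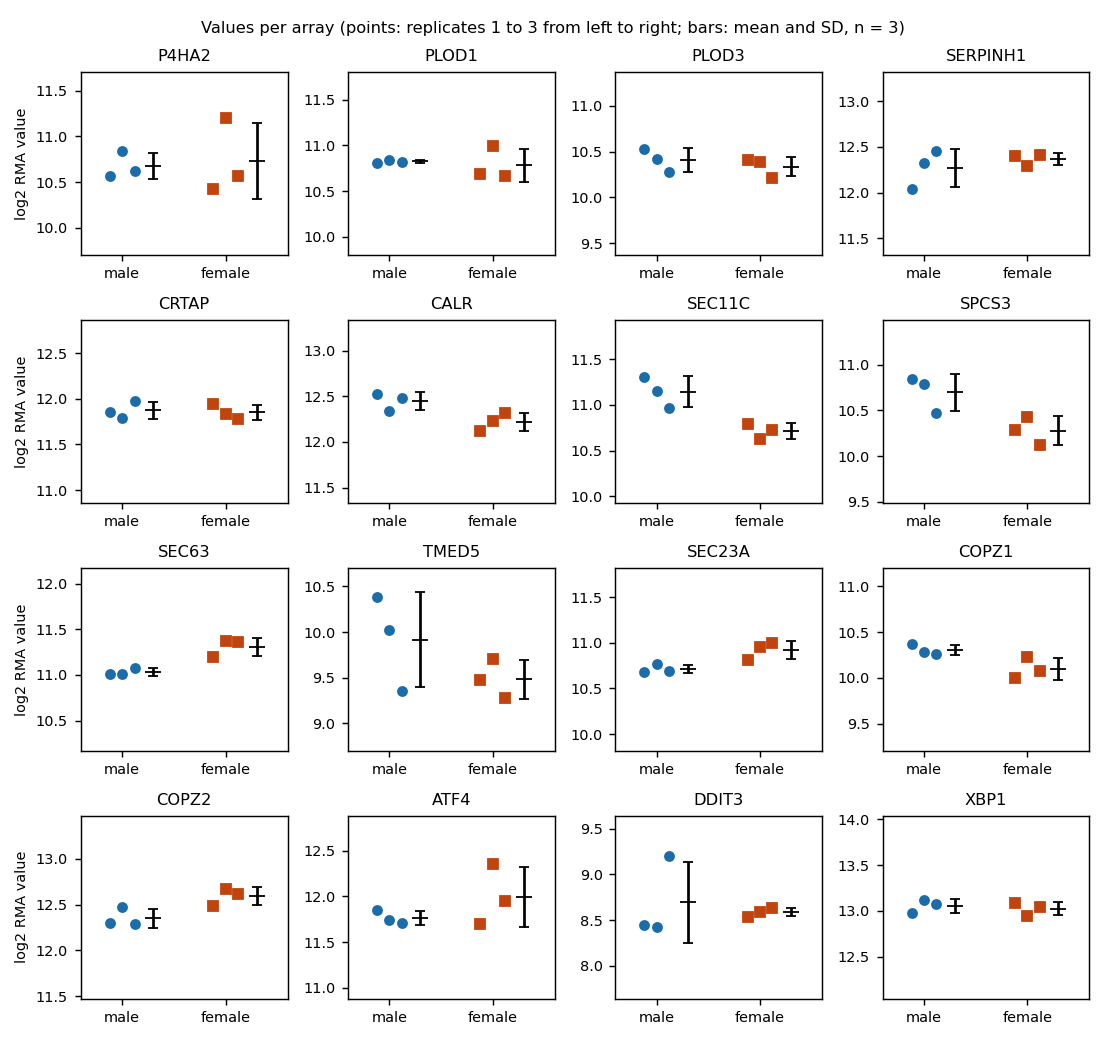
Values of 16 of the genes on each of the 6 arrays (log2 RMA value, vertical axis, of the same span in every panel), for male (circles) and female (squares) replicates 1 to 3 from left to right, and bars for the mean and SD per sex (n = 3). SEC11C, SPCS3 and SEC63 show sexes apart by 0.28 to 0.43 at the mean, while in P4HA2 and ATF4 female replicate 2 and in DDIT3 male replicate 3 stands above the other arrays.

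None of the COPII coat and cargo export genes passed the test. Of 17 genes, 7 were higher in males and 10 lower, with a median difference of -0.06 and a range from -0.21 to 0.43. SEC23A, the inner coat subunit whose loss impairs collagen export and skull growth, was 10.68, 10.77 and 10.70 in males and 10.82, 10.96 and 10.99 in females. The male values all lay below the females. The difference was -0.21 (SE 0.10, 95% interval -0.44 to 0.03, limma adjusted p = 0.343). The other probe set of SEC23A had a difference of -0.02 with overlapping sexes, and the mean of both probe sets gave -0.11. Its close relative SEC23B had a difference of 0.06 with overlapping sexes. SEC23IP, which binds SEC23 proteins, had a difference of -0.18 with males below females, and SEC24D, a cargo adaptor also tied to collagen export, one of -0.15 with overlap.

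The outer coat and the small GTPase that starts the coat gave mixed values. SEC31A had a difference of -0.14 and SEC13 of -0.07, with SEC13 at 9.99 in female replicate 2 and between 9.32 and 9.52 on the other arrays. SAR1A had a difference of -0.17 and SAR1B, the form whose loss blocks chylomicron export, one of 0.08, and the sexes overlapped in both. SEC24C, SEC31B and SEC22C, the last a trafficking protein outside the coat, had differences of 0.12, -0.13 and 0.01 with overlap. Among the TMED cargo receptors, TMED5 was 10.38, 10.02 and 9.35 in males and 9.48, 9.70 and 9.27 in females. Male replicates 1 and 2 lay above all females, and male replicate 3 lay among the females. The difference of TMED5 was 0.43, or 1.35-fold (SE 0.26, 95% interval -0.18 to 1.04, limma adjusted p = 0.444), the least precise of the set. It was 0.20 without male replicate 1 and 0.72 without male replicate 3 (limma adjusted p = 0.842 and 0.111), and 0.23 with the mean of all 4 probe sets. TMED7 had a difference of 0.16 with no overlap (limma adjusted p = 0.428), and TMED10, TMED2, TMED3 and TMED4 had differences of 0.05, -0.05, -0.06 and -0.11 with overlap. Further probe sets of TMED7 had differences of 0.40 with no overlap (limma adjusted p = 0.176), and of -0.02 and -0.02 with overlap. At the other probe set of TMED10 the difference was 0.32 with no overlap (limma adjusted p = 0.216).

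Of the COPI coat and retrieval genes, 3 of 10 were higher in males and 7 lower, with a median difference of -0.11, and no gene passed the test. COPB2, a coat subunit, was 6.15, 6.37 and 6.51 in males and 6.88, 6.56 and 6.57 in females, below the array medians. The highest male value lay 0.05 under the lowest female value. The difference was -0.32, with females 1.25-fold higher (SE 0.14, 95% interval -0.66 to 0.01, limma adjusted p = 0.307). COPZ2, a coat subunit that is 1 of a pair with COPZ1, was 12.30, 12.47 and 12.29 in males and 12.48, 12.68 and 12.62 in females, a difference of -0.24 (limma adjusted p = 0.321).

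COPZ1 had the opposite sign, at 10.37, 10.29 and 10.27 in males and 9.996, 10.23 and 10.07 in females, a difference of 0.21 (SE 0.10, 95% interval -0.04 to 0.45, limma adjusted p = 0.366). The sexes did not overlap in either member of the pair, and the difference between the pair was not tested. COPG1 and COPA had differences of -0.18 and -0.10, both with males below females, while COPG2 had 0.07 and COPB1 -0.06 with overlap. The KDEL receptors KDELR1, KDELR2 and KDELR3, which return chaperones to the endoplasmic reticulum, had differences of 0.07, -0.12 and -0.26. KDELR3 was 11.34, 11.39 and 11.39 in males and 11.29, 11.88 and 11.73 in females, so that female replicates 2 and 3 stood above the males and female replicate 1 below them (limma adjusted p = 0.460).

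The sexes overlapped in all 3 stress transcription factors. ATF4, which turns on amino acid synthesis and folding genes, was 11.85, 11.74 and 11.71 in males and 11.70, 12.35 and 11.95 in females, a difference of -0.23 (SE 0.17, 95% interval -0.63 to 0.17, limma adjusted p = 0.539). Female replicate 2 was the highest array and female replicate 1 the lowest, so the female range enclosed the males. DDIT3 (CHOP), which follows ATF4 in prolonged stress, was 8.45, 8.43 and 9.21 in males and 8.54, 8.59 and 8.63 in females, a difference of 0.11 (SE 0.21, 95% interval -0.39 to 0.61, limma adjusted p = 0.844). Male replicate 3 stood above the other arrays, which lay between 8.43 and 8.63. XBP1, which drives chaperone and export genes, was 12.97, 13.12 and 13.07 in males and 13.09, 12.94 and 13.04 in females, a difference of 0.03 (SE 0.10, limma adjusted p = 0.906). These probe sets measure total XBP1, ATF4 and DDIT3 transcript and not splicing or protein. SEC14L1 and SEC14L2 had differences of -0.10 and -0.21 with overlap (limma adjusted p = 0.804 and 0.439).

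Single arrays differed in how often they held the extreme value of a gene. Female replicate 2 held the highest value for 18 of 56 genes, or 32.1%, against 17.4% of the named genes, including P4HA2, PLOD1, ATF4, SEC13, SEC61B, SEC61G and KDELR3. Female replicate 1 held the lowest value for 18 genes, or 32.1% against 19.3%, among them P4HA2, ATF4, SEC61B and KDELR3 again. Male replicate 1 held the highest value for 10 genes, or 17.9%, against 30.6% of the named genes. The median deviation from the gene mean was -0.07 in female replicate 1 and 0.05 in female replicate 2. The range over the 6 arrays had a median of 0.33 and ran from 0.139 to 1.11. Genes are not independent replicates, and no test was made of these counts.

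**Figure D3:**
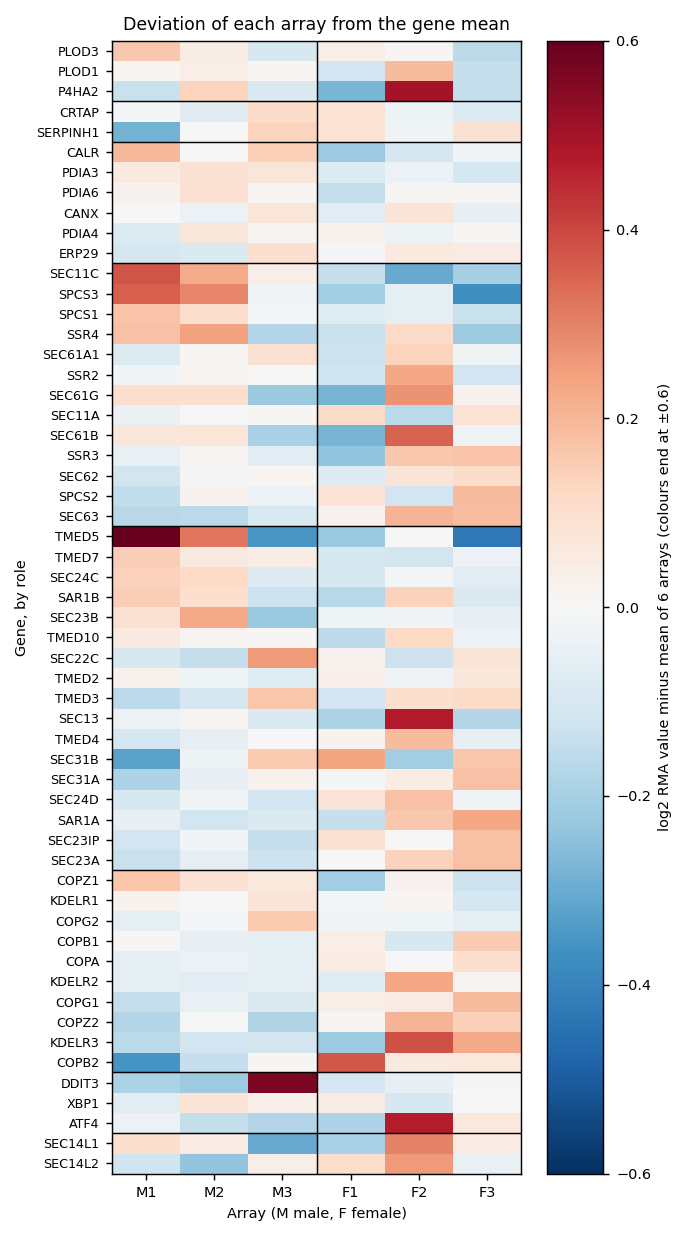
Deviation of each array from the mean of the 6 arrays (log2 RMA value, colour, ends of the scale at 0.6 in either direction) for the 56 genes, ordered by role, with male replicates M1 to M3 left of the line and female replicates F1 to F3 right of it. Female replicate 2 is the highest array for 18 genes and female replicate 1 the lowest for 18 genes.

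For 21 of the 56 genes a further 39 probe sets carried the same symbol. None of them passed the test (lowest limma adjusted p = 0.0951), and 24 of 39 were higher in males. Of these 39, 27 had the sign of the gene's chosen probe set and 12 the other sign, and 11 of the 21 genes had probe sets of both signs. The lowest adjusted p belonged to a CANX probe set at 6.58, 6.87 and 6.88 in males and 7.39, 7.34 and 7.47 in females, a difference of -0.63. The other 5 probe sets of CANX had differences from 0.03 to 0.24. PDIA3 had the highest difference at a further probe set, 0.51, where female replicate 3 was 7.76 and the other arrays 8.45 or above. Female replicate 3 was the lowest array by over 0.3 in 7 of the 39 further probe sets and in 0 of the 56 chosen ones. By any margin it was lowest in 13 of the 39 and in 10 of the 56 (17.9%), against 22.3% of the named genes. The chosen probe sets have the higher signal by rule, and the share beyond 0.3 over all probe sets was not counted. Female replicate 3 is the array with the widest gap between 5′ and 3′ controls, and the part of RNA quality in these values was not tested.

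**Figure D4:**
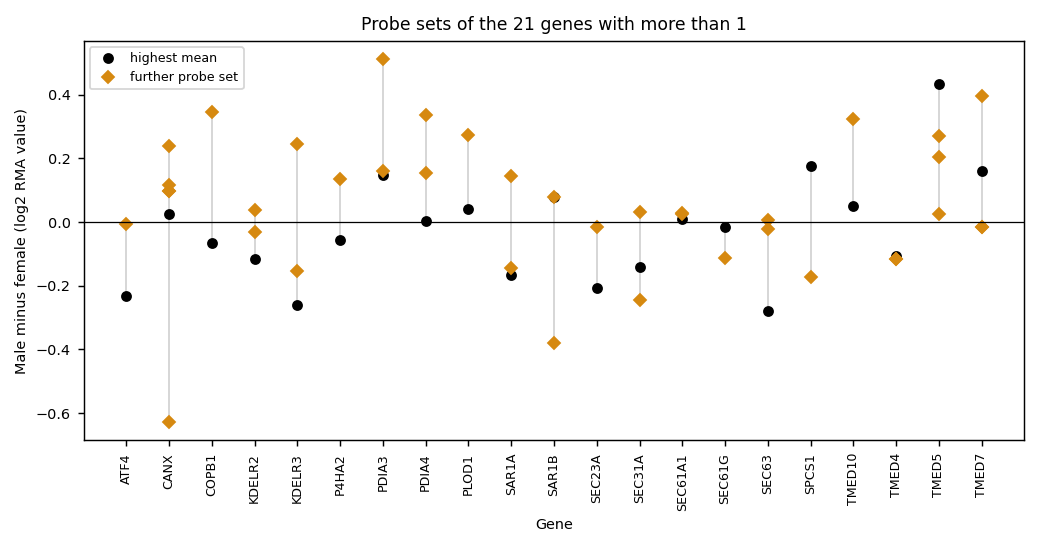
Difference between the sexes (male minus female, log2 RMA value) at every probe set of the 21 genes with more than 1, with the chosen probe set in black and the 39 further ones in orange, joined by a line per gene. Points of 1 gene lie on both sides of 0 in 11 genes, and the lowest point is a CANX probe set at -0.63.

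The neighbouring parts of the pathway also had no gene that passed either test. Of 19 other folding factors measured, 18 were higher on average in males, at a median difference of 0.15, and 5 were higher and 0 lower at an unadjusted p under 0.05. Over the named genes, 58.3% were higher on average in males, and 11.0% were higher and 6.53% lower at an unadjusted p under 0.05. The smallest p-values among them belonged to TMX3, a membrane-bound thioredoxin-like protein (0.36, limma adjusted p = 0.175), and MESDC2, a chaperone of lipoprotein receptors (0.29, limma adjusted p = 0.224). HSPA5 (BiP), the main folding chaperone and a standard mark of stress, had a difference of 0.12, and HSP90B1 one of 0.03. Of 11 other collagen modifiers, 4 were higher in males and 7 lower, with a median of -0.17. FKBP9 and FKBP10, prolyl isomerases of the endoplasmic reticulum, had differences of -0.35 and -0.30 (limma adjusted p = 0.235 and 0.344).

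Of 20 genes of translocation and N-glycosylation, 12 were higher in males, with a median of 0.04. TUSC3 and OSTC, subunits of the oligosaccharyltransferase, had differences of 0.43 and 0.26 (limma adjusted p = 0.164 and 0.268). Of 33 other transport genes, 18 were higher, with a median of 0.01, led by TRAPPC5 (0.36, limma adjusted p = 0.179) and the GTPase RAB1A (0.37, limma adjusted p = 0.239). Of 7 genes of stress signalling and degradation, 6 were higher in males, with a median of 0.42, and 4 were higher at an unadjusted p under 0.05, where 58.3% and 11.0% of the named genes were. PPP1R15A, which reverses the block on translation and is a target of ATF4 and DDIT3 signalling, was 10.61, 10.24 and 10.38 in males and 9.86, 9.56 and 10.002 in females, a difference of 0.60 (limma adjusted p = 0.157). ATF3, a factor induced by many stresses, was 10.27, 10.49 and 10.47 in males and 10.04, 9.15 and 8.81 in females, a difference of 1.07 (limma adjusted p = 0.169). Both had every male value above every female value, whereas ATF4 and DDIT3 themselves overlapped.

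The collagen chains that this machinery serves had lower means in males in all 6 genes measured, and none passed the test. Their median difference was -0.42, and 3 had an unadjusted p under 0.05, against 6.53% of the named genes that were lower at that p. COL5A1 was 12.27, 12.55 and 12.86 in males and 13.00, 13.06 and 13.27 in females, a difference of -0.55 (limma adjusted p = 0.191). COL6A3 was 12.87, 13.21 and 13.53 in males and 13.58, 13.69 and 13.85 in females, a difference of -0.50 (limma adjusted p = 0.237). The males lay below the females in both genes, by 0.05 at the nearest pair for COL6A3. COL5A2, COL6A2, COL1A2 and COL3A1 had differences of -0.58, -0.33, -0.25 and -0.05, with overlap. Male replicate 1 was the lowest array for all 6 chains and for SERPINH1, and it was also the array with the highest summed signal of the endothelial markers. The share of endothelial and interstitial RNA in these values was not tested. COL1A1, COL6A1 and COL14A1 were not analysed here.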

How the data were processed

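RNA of aortic valve leaflets from 3 castrated male and 3 female pigs was measured, with 1 Affymetrix array per pig. Per the labels, the authors ran RMA in R 2.12.0, which corrects background and normalizes the arrays together, and deposited its log2 values. Raw intensities were not used. RNA samples had been chosen by the authors for purity and integrity. Probe sets were named from the platform annotation (10099 with 1 symbol, 198 with several, 13826 with none), and all 56 symbols occur in the RefSeq gene table. Sexes were compared with limma 3.58.1 in R 4.3.3 (lmFit and eBayes, no covariate, 95% intervals) over 23999 probe sets, leaving out 124 controls, with Benjamini-Hochberg adjustment, at an adjusted p under 0.05. The second test kept the top 10% by CV, ranked over all 24123 probe sets with the controls included, and asked for at least a 2-fold change. The share of 10% was taken from earlier processing of these data. The study describes its CV filter as excluding values too unlike between biological replicates, which differs from the filter used here, and gives no threshold. The code was checked on simulated data. The genes, roles and lists were chosen with earlier results of these data known. Genes named by rule were every hydroxylase, collagen chaperone and stress factor, and in each other role the 2 extremes and the smallest p. Also named by rule were the 2 smallest p-values of each list and all measured chains of the collagen list. The others were named after their values were seen. The number of arrays limits the precision. The alternatives were array centring, quantile normalization, other variance settings, other probe set choices, a replicate block and leaving out each array.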

Additional observations from a re-analysis of the deposited data

How the results depend on the processing

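The number of the 56 genes that passed the test over all probe sets was 0 in all 14 alternatives. With the CV filter it was also 0 in all 15, but the filter left 1 of the genes in the fit with CV on the linear scale and 0 under the other settings, so this count says nothing about stability. The smallest adjusted p among them ran from 0.103 to 0.462. With 1 array left out in turn, both counts ran from 0 to 0, the median difference from -0.05 to 0.00, and the number of genes whose sexes did not overlap from 17 to 27, against 15 with all arrays. It was 25 without male replicate 3 and 27 without female replicate 2. Fewer arrays overlap less by construction. Leaving out each array in turn was planned, but the omissions of male replicate 3 and female replicate 2 are named because their counts were the highest. The replicate block gave 0 genes past the test, as without it. Deviations from the mean of each sex had correlations of -0.10, 0.01 and 0.27 between same-numbered pigs. Those between other male and female pigs ran from -0.22 to 0.21. With 3 pigs per sex, these values cannot decide whether the numbers pair the samples. The block raised the calls over all probe sets from 86 to 255. These calls ran from 13 (without male replicate 2) to 357 (without male replicate 3) with 1 array left out. Of 234 values of the 18 genes named by rule, 232 moved by less than the spread between replicates. With the mean of all probe sets of a gene, the difference was -0.11 for SEC23A and -0.10 for SEC63. That of TMED5 ran from 0.20 to 0.72 with 1 array left out. Over all alternatives, 22 of the 56 genes changed sign at least once and 34 did not, and 4 changed sign under quantile normalization (CANX, PDIA4, SEC61A1 and SSR2), all but CANX also under array centring. Protein and promoter sequences were not analysed here.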
